A study of Mus musculus with 13 samples.

Results

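The 8 genes described here encode the first enzymes that act on superoxide and peroxides, namely the superoxide dismutases Sod1, Sod2 and Sod3, the catalase Cat, and the glutathione peroxidases Gpx1, Gpx2, Gpx3 and Gpx4. They were chosen by symbol, as the rows of the deposited count table that carry these names, and not by their values. All 8 were found among the 32544 gene symbols of the table, and all 8 were among the 12496 genes left after a filter on low counts.

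Superoxide arises when oxygen takes up a single electron, for example at the respiratory chain or at NADPH oxidases, and superoxide dismutases convert it to oxygen and hydrogen peroxide. Catalase then splits hydrogen peroxide into water and oxygen in peroxisomes, whereas glutathione peroxidases reduce hydrogen and lipid peroxides with electrons from glutathione. The lung meets inhaled oxygen directly, and these enzymes are classical subjects of work on oxygen toxicity in this organ.

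The data are 13 libraries of whole lung from wild-type C57BL/6J mice, all male and 7 weeks old on purchase. Of these, 7 libraries (Normoxia 1 to 7) came from 21% oxygen and 6 (Hyperoxia 1 to 6) from 80% oxygen, in each case for 5 days, after which blood was washed out of the lungs with DPBS and the tissue was frozen. RNA was made into 3′ mRNA-seq libraries (Quant-seq), which read the end of each polyadenylated transcript, so that a count follows the number of transcripts more than their length. The labels give no animal for each library, so the p-values measure the spread between these samples. Whole lung mixes many cell types, so that for every gene below fewer cells of a type and less RNA per cell cannot be told apart.

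Gpx1 to Gpx4 are selenoproteins, and the codon at which selenocysteine is inserted is a TGA that would end translation elsewhere. The reading frame around it is shown because it is the feature that separates these 4 genes from the other enzymes here and ties them to the selenium genes described further on. The sequences are from the GRCm38 transcripts of the reference annotation, written 5′ to 3′ on the coding strand, with 12 bases on each side and the selenocysteine codon in capitals.
Gpx1: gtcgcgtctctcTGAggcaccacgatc
Gpx2: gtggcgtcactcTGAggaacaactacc
Gpx3: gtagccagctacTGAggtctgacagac
Gpx4: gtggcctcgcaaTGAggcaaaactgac
The codon lies in exon 1 of 2 of Gpx1 (chr9:108339451-108339453, plus strand), exon 1 of 2 of Gpx2 (chr12:76795256-76795258, minus strand), exon 2 of 5 of Gpx3 (chr11:54907256-54907258, plus strand) and exon 3 of 7 of Gpx4 (chr10:80054737-80054739, plus strand). Over the 27 bases, Gpx1 and Gpx2 shared 21, and Gpx3 shared 13 with either of them. Gpx4 shared 17 bases with Gpx1, 19 with Gpx2 and 16 with Gpx3.

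In the same annotation Sod1 lies at chr16:90220754-90226329, Sod2 at chr17:13006846-13040063 and Sod3 at chr5:52363791-52371418, each on the plus strand, and Cat at chr2:103453849-103485160 on the minus strand. Sod1 overlaps Scaf4 and Gpx2 overlaps Fntb, each on the opposite strand, and the other 6 genes overlap no annotated gene. These are overlaps of whole gene spans, and whether exons overlap was not examined. The sources used here do not state whether strand was used in counting. Whether any reads of Scaf4 or Fntb entered the counts of Sod1 or Gpx2 is therefore not known.

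Total counts ran from 1607111 (Normoxia 5) to 4540288 (Hyperoxia 6) per library, so that 3 counts, taken as the floor, corresponded to between 0.656 and 1.84 CPM, counts scaled to library size. Hyperoxia 1 stood apart from the other libraries: its log2 CPM correlated with theirs at 0.721 to 0.833, and the other 12 correlated with each other at 0.854 to 0.967. It had 0.944% of its counts in mitochondrial genes, against 1.94 to 3.24% elsewhere, and 14170 genes with a count, against 15476 to 16595. It was kept in all groups, and values of the 8 enzymes that move by over 1.5 times or change their call without it are given both ways.

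Of the 8 genes, 2 changed at an adjusted p under 0.05 (edgeR's quasi-likelihood test with Benjamini-Hochberg adjustment over all genes tested). Sod2, the manganese enzyme of mitochondria, rose 1.62-fold, and Cat fell to 0.578 of its normoxic level. Over all genes tested 22.6% were called in either direction, 11.8% as higher and 10.8% as lower, so that 2 of 8 is close to the share of all genes. The 8 genes had a median log2 fold change of 0.03, and all genes tested together one of −0.03. The sign of the change of each of the 8 was the same in every model fit, but Sod1, Gpx1 and Gpx4 changed sign in comparisons within a part of the libraries, which are given with each gene. The other 6 genes did not pass the test, with adjusted p between 0.0882 and 0.692 in the same edgeR fit.

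**Figure D1:**
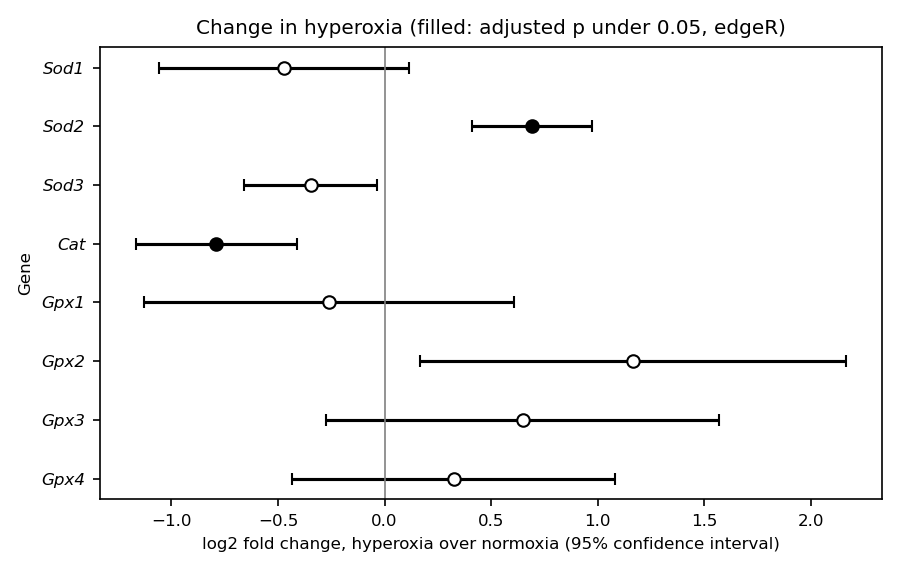
Log2 fold change of each gene in hyperoxia over normoxia on the x axis, with its 95% confidence interval, from edgeR over 7 Normoxia and 6 Hyperoxia libraries. The filled points are Sod2 at 0.69 and Cat at −0.79, and the widest intervals are those of the glutathione peroxidases.

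The mitochondrial dismutase Sod2 is the only one of the 3 dismutases that passed the test. Its level ran from 119 over a median of 158 to 179.5 CPM in normoxia and from 192 over a median of 255 to 294 CPM in hyperoxia. The lowest hyperoxic library was above the highest normoxic library, so the groups did not overlap, which was the case for 10.8% of all genes tested. The mean was 156 ± 19.2 CPM (SD, n = 7) under normoxia and 252 ± 35.9 CPM (SD, n = 6) under hyperoxia, with a log2 fold change of 0.69 (SE 0.13, 95% confidence interval of the fold 1.33 to 1.97, adjusted p = 0.00151 by edgeR). A two-sided exact permutation test of the mean log2 CPM gave 0.000583, the smallest p that 7 and 6 libraries allow. Sod2 was called in all 24 fits that were run, with log2 fold changes between 0.61 and 0.83.

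Sod1, the copper and zinc enzyme of the cytosol, ran from 181 over a median of 234 to 302 CPM in normoxia and from 57.4 over a median of 175 to 291 CPM in hyperoxia. Hyperoxia 1, 3 and 5 were below every normoxic library and Hyperoxia 2 was near the top of the normoxic range, so the groups overlapped. Its log2 fold change was −0.47 (SE 0.28, fold 0.721, 95% confidence interval 0.480 to 1.08, adjusted p = 0.247 by edgeR). Without Hyperoxia 1 the log2 fold change was −0.28 (adjusted p = 0.321 by edgeR). The labels name each library by a letter and name no batch, and all libraries share a sequencing lane. As a check, libraries B to M (Normoxia 1 to 5 and Hyperoxia 1 to 3) were read apart from libraries O to S (Normoxia 6 and 7 and Hyperoxia 4 to 6), a grouping that was inferred from the order of the letters. For Sod1 the means of log2 CPM differed by −1.04 within B to M and by 0.01 within O to S.

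Sod3, the copper and zinc enzyme secreted into the extracellular matrix, ran from 233 over a median of 289 to 327 CPM in normoxia and from 176 over a median of 205 to 287 CPM in hyperoxia. All 6 hyperoxic libraries were below the normoxic median, and 4 were below every normoxic library. The log2 fold change was −0.35 (SE 0.15, fold 0.786, 95% confidence interval 0.634 to 0.976), with an adjusted p of 0.103 by edgeR. Hyperoxia 1 had the highest hyperoxic level of Sod3, and without it the log2 fold change was −0.41 with an adjusted p of 0.0269, in a fit that called 28.5% of all genes. With a correction for the length and GC content of transcripts it was −0.20 with an adjusted p of 0.398 by edgeR. Relative to the median over all genes Sod3 was at −0.29 with this correction and at −0.32 without it.

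Catalase fell. Its level ran from 289 over a median of 333 to 401 CPM in normoxia and from 146 over a median of 175 to 320.1 CPM in hyperoxia. Hyperoxia 2 to 6 were below every normoxic library, at 195 CPM or less, and Hyperoxia 1, at 320.1 CPM, was inside the normoxic range. The mean was 335 ± 40.4 CPM (SD, n = 7) under normoxia and 194 ± 64.3 CPM (SD, n = 6) under hyperoxia, with a log2 fold change of −0.79 (SE 0.18, 95% confidence interval of the fold 0.445 to 0.751, adjusted p = 0.00459 by edgeR). The two-sided exact permutation p was 0.00233. Within libraries B to M the means of log2 CPM differed by −0.66, and within O to S by −0.90. In 23 of 24 fits Cat was called, and in the fit with that correction it was not (log2 fold change −0.60, adjusted p = 0.0866 by edgeR, with 24.6% of all genes called). That correction moved the median over all genes by 0.11 on the log2 scale, and relative to the corrected median Cat was at −0.68, against −0.76 without the correction.

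**Figure D2:**
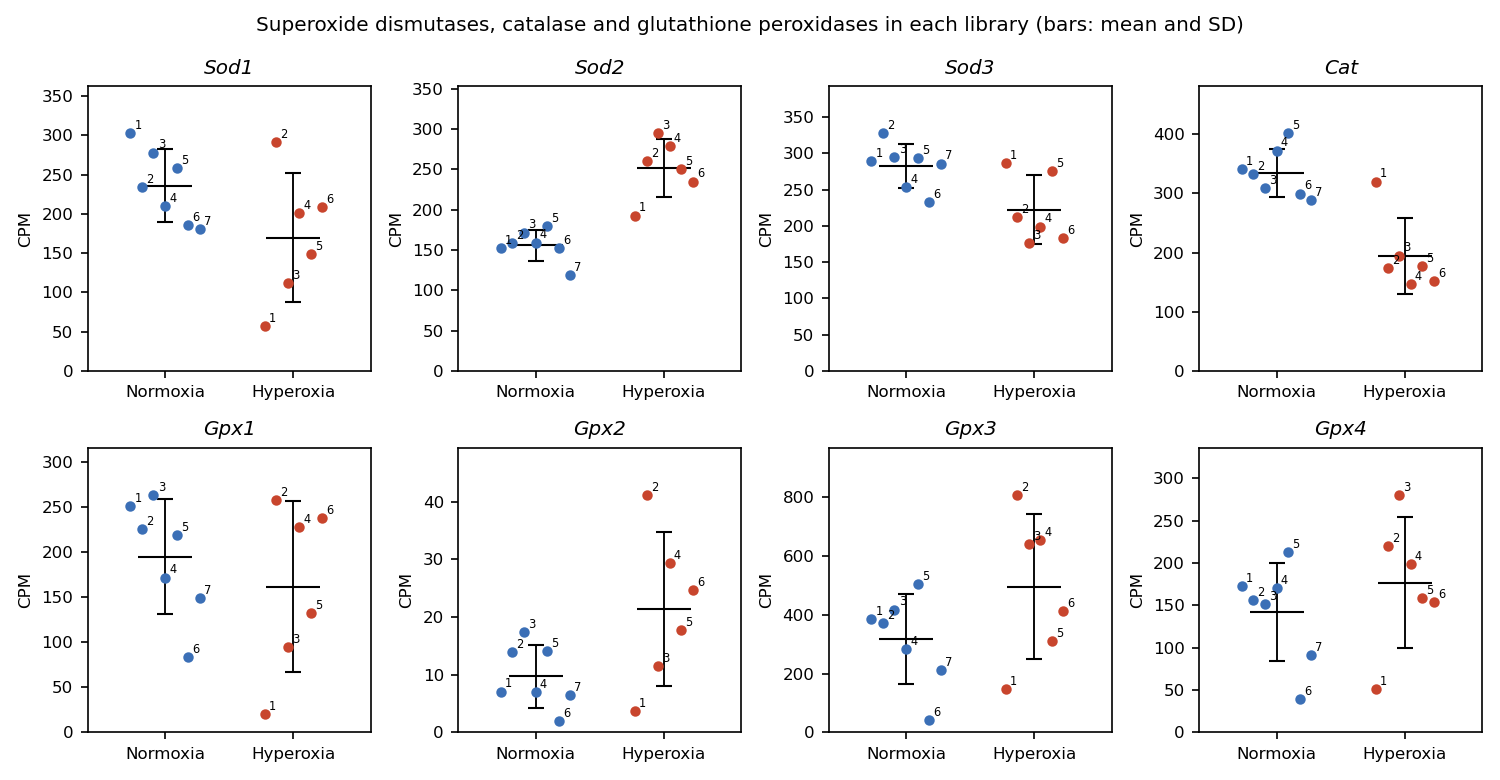
CPM of each gene (y axes, each starting at 0) in the Normoxia and Hyperoxia libraries, numbered by replicate, with the mean and SD as bars. For Sod2 all hyperoxic points are above all normoxic points, for Cat all but Hyperoxia 1 are below, and for the glutathione peroxidases Hyperoxia 1 and Normoxia 6 are at the bottom of their groups.

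None of the 4 glutathione peroxidases passed the test, and within normoxia their libraries spread more widely than those of the genes above. There the coefficient of variation was 32.8% for Gpx1, 56.3% for Gpx2, 48.2% for Gpx3 and 40.9% for Gpx4, against 10.8 to 19.7% for the dismutases and catalase. Within hyperoxia it was between 43.6 and 62.4% for the 4 peroxidases, 48.3% for Sod1 and between 14.2 and 33.1% for Sod2, Sod3 and Cat.

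Gpx1, the peroxidase of the cytosol and mitochondria, ran from 83.3 over a median of 219 to 263 CPM in normoxia and from 20.4 over a median of 180 to 257 CPM in hyperoxia. Of the hyperoxic libraries 3 were above and 3 below the normoxic median. The log2 fold change was −0.26 (SE 0.41, fold 0.834, 95% confidence interval 0.457 to 1.52, adjusted p = 0.692 by edgeR). Without Hyperoxia 1 it was −0.02 (adjusted p = 0.969), and over all libraries left out in turn it was between −0.43 and −0.02, moving by over 1.5 times without Normoxia 3 or Hyperoxia 1, 2, 3 or 6. It was −0.63 with limma on the deposited values, −0.51 with limma-voom and −0.51 with the replicate number as a block, with adjusted p between 0.392 and 0.609. The difference was −1.48 within libraries B to M and 0.79 within O to S, so its direction was not the same in both. Libraries B to M include Hyperoxia 1, the lowest hyperoxic library, at 20.4 CPM. Libraries O to S include Normoxia 6, the lowest normoxic library, at 83.3 CPM.

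Gpx2, the peroxidase best known from epithelia of the gut, was the gene of lowest level, with 7 to 113 counts per library. It ran from 1.95 over a median of 7.09 to 17.3 CPM in normoxia and from 3.75 over a median of 21.3 to 41.2 CPM in hyperoxia. Hyperoxia 2, 4, 5 and 6 were above every normoxic library, Hyperoxia 3 was inside the normoxic range and Hyperoxia 1 was at its lower end. The log2 fold change was 1.17 (SE 0.47, fold 2.25, 95% confidence interval 1.12 to 4.49), with an adjusted p of 0.0882 by edgeR. Without Hyperoxia 1 it was 1.39 with an adjusted p of 0.0134. The difference was 0.14 within libraries B to M, which include Hyperoxia 1, and 2.47 within O to S.

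Gpx3 encodes the secreted peroxidase of plasma. It ran from 42.9 over a median of 370.0 to 503 CPM in normoxia and from 147 over a median of 525 to 806 CPM in hyperoxia. Hyperoxia 2, 3 and 4 were above every normoxic library, and Hyperoxia 1 and 5 were below the normoxic median. The log2 fold change was 0.65 (SE 0.43, fold 1.57, 95% confidence interval 0.827 to 2.97, adjusted p = 0.316 by edgeR). It was 0.98 with the letter group as a term (adjusted p = 0.141 by edgeR), 0.14 within libraries B to M and 2.18 within O to S, in which Normoxia 6 and 7 had the lowest normoxic levels, 42.9 and 213 CPM.

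Gpx4, which reduces lipid peroxides inside membranes and restrains ferroptosis, ran from 39.0 over a median of 156 to 213 CPM in normoxia and from 50.9 over a median of 179 to 280.4 CPM in hyperoxia. Hyperoxia 2 and 3 were above every normoxic library. The log2 fold change was 0.32 (SE 0.36, fold 1.25, 95% confidence interval 0.741 to 2.12, adjusted p = 0.559 by edgeR). It was 0.54 without Hyperoxia 1, and 0.16 and 0.17 without Hyperoxia 3 and Normoxia 6, with adjusted p between 0.188 and 0.792 by edgeR. It was 0.59 with the letter group as a term and 0.55 with the length and GC correction (adjusted p = 0.28 and 0.17). Its direction also differed within the letters, at −0.22 in B to M and 1.49 in O to S. Libraries B to M include Hyperoxia 1, at 50.9 CPM, beside 220 and 280.4 CPM in Hyperoxia 2 and 3. The normoxic libraries of O to S are Normoxia 6, at 39.0 CPM, and Normoxia 7, at 91.0 CPM.

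The same libraries were low for several of these genes at once. Among the normoxic libraries Normoxia 6 was lowest for 5 of the 8 genes, among them all 4 peroxidases, and among the hyperoxic libraries Hyperoxia 1 was lowest for 6, again with all 4 peroxidases. Hyperoxia 1 deviated from the median log2 CPM of its group by −3.05 for Gpx1, −2.29 for Gpx2, −1.79 for Gpx3, −1.79 for Gpx4 and −1.58 for Sod1. The deviations of Normoxia 6 were −1.38 for Gpx1, −1.57 for Gpx2, −3.09 for Gpx3 and −1.98 for Gpx4, but −0.33 for Sod1. For Sod2, Sod3 and Cat these 2 libraries deviated by between −0.41 (Sod2 in Hyperoxia 1) and 0.87 (Cat in Hyperoxia 1).

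Normoxia 6 was also the lowest normoxic library for Sod3, at −0.31, and Hyperoxia 1 the lowest hyperoxic one for Sod2. The median transcript length of Sod1 and the 4 peroxidases was between 641 and 1067 nucleotides, whereas it was 1696 for Cat, 3156 for Sod2 and 3738 for Sod3. Over the 2094 tested genes under 1000 nucleotides, the median deviation was −0.51 in Hyperoxia 1, −0.15 in Normoxia 6 and −0.15 in Hyperoxia 3, and over the 2263 genes of at least 4000 nucleotides it was 0.04, 0.11 and 0.02. In Hyperoxia 3, Gpx1 and Gpx2 were at −0.86 and −0.84 from their group median, and Gpx3 was at 0.32 and Gpx4 at 0.66. The part of these libraries in each result was examined by leaving them out. Without both, which was decided on with the values in view, Sod2 was at 0.75 and Cat at −1.02, and Sod3 at −0.47 (adjusted p = 0.0137) and Gpx2 at 1.18 (adjusted p = 0.0138) were called as well by edgeR. That fit called 28.4% of all genes, beside 22.6% with all libraries. Gpx3 was then at 0.64, with an adjusted p of 0.0569.

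**Figure D3:**
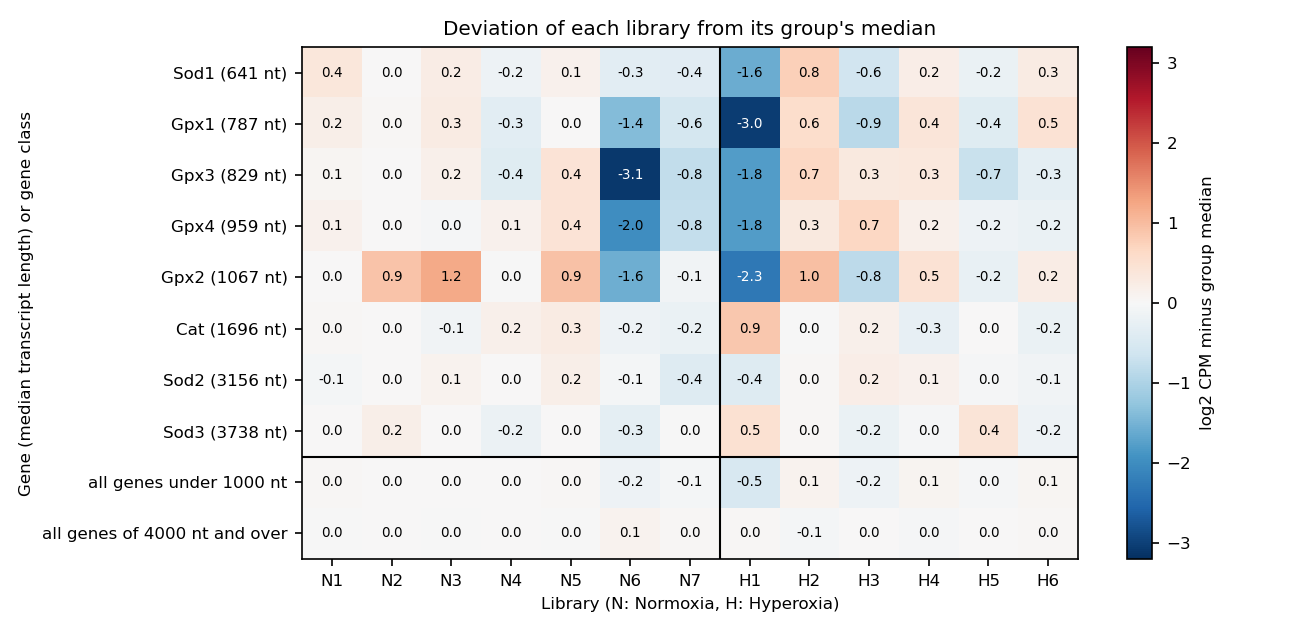
Deviation of each library (x axis) from the median log2 CPM of its group, with the 8 genes ordered by median transcript length and all short and all long genes below them. The darkest blue cells lie in Normoxia 6 and Hyperoxia 1, among the 5 genes with the shortest transcripts.

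Whether 2 of the enzymes changed by different amounts was asked for 6 pairs, from the difference of their log2 CPM within each library, in which the scaling of the library cancels. The levels themselves are not compared between genes. Sod2 minus Sod1 ran from −0.99 to −0.29 in normoxia and from −0.16 to 1.73 in hyperoxia. The groups did not overlap, and the change between their means was 1.31 (two-sided exact permutation p = 0.000583, and 0.00175 when adjusted over the 6 pairs). It was 1.62 within libraries B to M and 0.91 within O to S. The transcripts of Sod2 and Sod1 have 3156 and 641 nucleotides, and Hyperoxia 1 was the highest library, without which the change was 1.10. Gpx2 minus Gpx1 ran from −5.02 to −3.87 in normoxia and from −3.23 to −2.25 in hyperoxia, again without overlap. The change was 1.56 (exact permutation p = 0.000583, adjusted over the pairs 0.00175), and it was 1.62 within libraries B to M and 1.69 within O to S. Although neither gene passed the test alone, Gpx2 thus stood higher relative to Gpx1 in all 6 hyperoxic libraries than in any normoxic one. These 2 genes have transcripts of 1067 and 787 nucleotides.

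Gpx3 minus Gpx1 changed by 1.29 (exact permutation p = 0.00291, adjusted over the pairs 0.00583), with 5 of 6 hyperoxic libraries above every normoxic one. It was 1.62 within libraries B to M and 1.39 within O to S, and 0.85 without Hyperoxia 1 and Normoxia 6 (exact permutation p = 0.00866). Gpx4 minus Gpx1 changed by 0.87 (exact permutation p = 0.0315, adjusted over the pairs 0.0472). The unadjusted p was over 0.05, between 0.0584 and 0.0736, without any of 7 libraries, namely Normoxia 1, 2, 3, 6 and 7 and Hyperoxia 1 and 3. With libraries left out, p was not adjusted over the pairs, so the call may be lost without others as well. Sod3 minus Sod1 changed by 0.26 (exact permutation p = 0.613) and by −0.10 without Hyperoxia 1, and its sign differed within the letters, at 0.64 in B to M and −0.26 in O to S. Cat minus Gpx1 changed by −0.27 (exact permutation p = 0.753) and by −0.94 without Hyperoxia 1 (exact permutation p = 0.0391, not adjusted), and was 0.82 within B to M and −1.68 within O to S. Over the libraries left out in turn, Sod3 minus Sod1 was highest at 0.45, without Hyperoxia 2, and Cat minus Gpx1 was nearest to 0 at −0.02, without Hyperoxia 6.

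**Figure D4:**
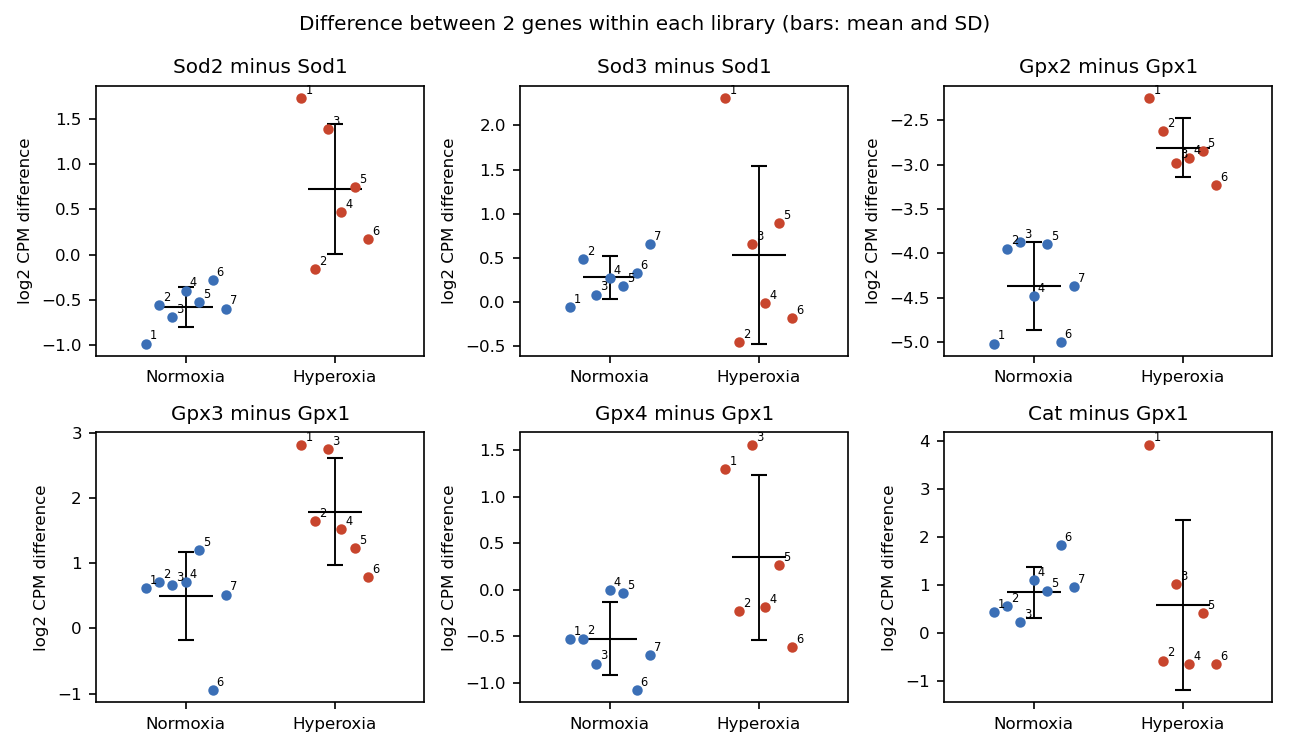
Difference in log2 CPM between 2 genes within each library (y axes), for 6 pairs, with replicate numbers and the mean and SD of each group. For Sod2 minus Sod1 and Gpx2 minus Gpx1 all hyperoxic points are above all normoxic points, whereas for Sod3 minus Sod1 and Cat minus Gpx1 the groups overlap and Hyperoxia 1 is far above the rest.

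For both called enzymes the tested genes with the most similar pattern over the 13 libraries were looked up by Pearson correlation of log2 CPM. They were Pno1 (r = 0.963, rho = 0.896), Eif1 (r = 0.958, rho = 0.956) and Ptp4a1 (r = 0.957, rho = 0.901) for Sod2, all higher in hyperoxia. Pno1 is known as an assembly factor of the small ribosomal subunit, and Eif1 as a factor in the choice of the start codon. For Cat they were Mgll (r = 0.969, rho = 0.956), Nuak1 (r = 0.953, rho = 0.846) and Pllp (r = 0.950, rho = 0.918), all lower in hyperoxia. Mgll encodes the lipase of monoacylglycerols. Without Hyperoxia 1 the 6 correlations were between 0.957 and 0.969. They are descriptions, since the 6 genes were selected as the highest of all and the libraries share the difference between groups.

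The genes around these enzymes were followed with 9 lists. Of the 6 peroxiredoxins, which reduce peroxides with thioredoxin or glutathione, 1 was higher, 0 were lower and 5 were not called, beside 11.8% of all genes called higher. The called gene was Prdx6, which also acts as a phospholipase on lung surfactant lipids. It ran from 1319 over a median of 1664 to 2001 CPM in normoxia and from 1829 over a median of 2240 to 3901 CPM in hyperoxia, and its log2 fold change was 0.59 (SE 0.18, adjusted p = 0.025 by edgeR). Of the other glutathione peroxidases, Gpx7 was at −0.70 (adjusted p = 0.188 by edgeR) and Gpx8, named after its value was seen, at −0.28 (adjusted p = 0.27), while Gpx5 and Gpx6 had 1 and 0 counts over all libraries and were not tested.

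Of 7 genes that bring metals to the dismutases, 1 was higher, 1 was lower and 5 were not called, beside 22.6% of all genes called. Slc39a14, an importer of manganese, zinc and iron, was between 8.50 and 26.8 CPM in normoxia and between 26.1 and 49.0 CPM in hyperoxia, and its log2 fold change was 1.26 (SE 0.24, adjusted p = 0.00151 by edgeR). Atp7b, a pump for copper, was between 18.7 and 36.6 CPM in normoxia and between 5.21 and 17.0 CPM in hyperoxia, and its log2 fold change was −1.17 (SE 0.26, adjusted p = 0.00379). Ccs, the copper chaperone of Sod1, was at −0.82 with an adjusted p of 0.216 by edgeR, and was chosen for mention after its value was seen.

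Among 11 genes of selenocysteine synthesis and selenium transport, on which the 4 peroxidases depend, 2 were higher, 1 was lower and 8 were not called, beside 22.6% of all genes called. Lrp8, a receptor that takes up selenoprotein P, was between 1.19 and 1.96 CPM in normoxia, near the floor, and between 6.46 and 11.5 CPM in hyperoxia (log2 fold change 2.50, SE 0.26, adjusted p = 8.25e-06 by edgeR). Secisbp2, which binds the element in selenoprotein mRNAs that recruits selenocysteine, was higher by 0.47 (adjusted p = 0.0281), and Sephs1, a paralogue of selenophosphate synthetase, was lower at −0.50 (adjusted p = 0.0334). Of 13 other selenoprotein genes tested, 2 were higher, 2 were lower and 9 were not called, again beside 22.6% of all genes. Txnrd1, the cytosolic thioredoxin reductase, rose 3.58-fold, from 45.9 to 70.8 CPM in normoxia to 174 to 243 CPM in hyperoxia (adjusted p = 2.16e-07). Selenoi, listed as Ept1, was at 0.55 (adjusted p = 0.0156), Selenoo, listed as Selo, at −0.87 (adjusted p = 0.0199) and Txnrd3 at −0.53 (adjusted p = 0.0451), all by edgeR.

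Of the oxidases that make superoxide or hydrogen peroxide, 11 of 22 were tested, and 2 were higher and 3 lower, beside 11.8% and 10.8% of all genes. Among the higher genes was Paox, a polyamine oxidase of peroxisomes, at 0.83 (adjusted p = 0.0218 by edgeR), which is named after its value was seen. Among the lower genes were Nox4, a NADPH oxidase that makes mostly hydrogen peroxide, at −0.50 (adjusted p = 0.0154), and Cybb, the catalytic subunit of the phagocyte NADPH oxidase, at −0.69 (adjusted p = 0.0144), both by edgeR. Of 16 genes of peroxisome biogenesis, the compartment of catalase, 1 was higher, 0 were lower and 15 were not called, also beside 11.8% of all genes. The called gene was Pex11a, a factor in peroxisome division, at 0.65 (SE 0.21, adjusted p = 0.0389 by edgeR).

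Of 13 tested targets of the transcription factor NRF2, 7 were higher, 0 were lower and 6 were not called, beside 11.8% of all genes called higher. Hmox1 was also on this list but had 9 counts over all libraries and was not tested. All 13 tested targets were above 0, and their median was 0.81 on the log2 scale, beside −0.03 over all genes tested. It was between 0.69 and 0.88 with each library left out in turn. Beside Txnrd1, the genes with the smallest p were Srxn1, which repairs overoxidized peroxiredoxins (fold 5.53, adjusted p = 1.37e-06 by edgeR), and Gclc and Gclm, the subunits of the enzyme that begins glutathione synthesis (fold 4.32, adjusted p = 3.22e-06, and fold 2.77, adjusted p = 5.81e-05). In each of these 4 genes the groups did not overlap, which was the case for 10.8% of all genes tested. The 4 genes were picked from the list by their small p, which favours genes without overlap. Gclc, for example, was between 188 and 273 CPM in normoxia and between 504 and 1461 CPM in hyperoxia. Of the NF-kB targets 1 was higher and 2 were lower of 8 tested, beside 11.8% and 10.8% of all genes. Nfkbia, the inhibitor of NF-kB, was at 0.61 (adjusted p = 0.022), Nfkb1 at −0.85 (adjusted p = 0.00706) and Traf1, an adaptor of TNF receptors, at −1.70 (adjusted p = 1.56e-05), all by edgeR.

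**Figure D5:**
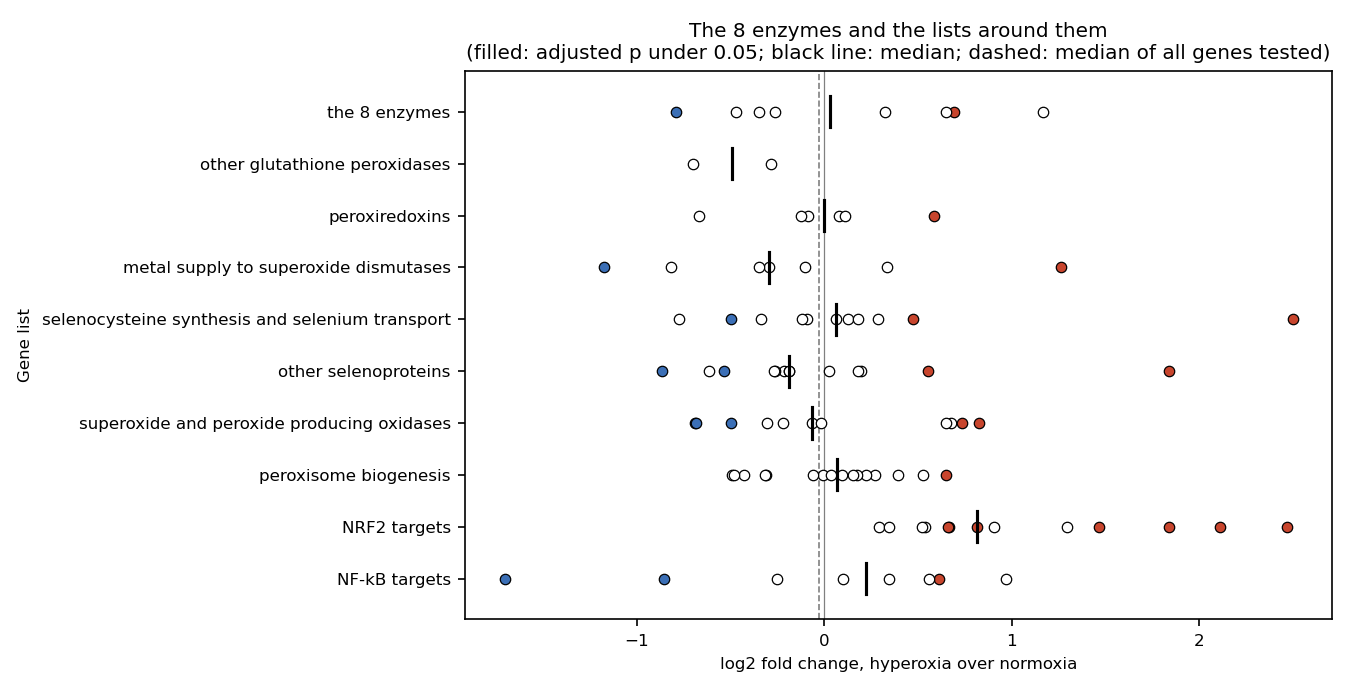
Log2 fold change of each tested gene of the 8 enzymes and of 9 lists (x axis), filled where the adjusted p was under 0.05, with the median of each list as a black line and that of all genes tested as a dashed line. The 13 NRF2 targets lie to the right of 0, with a list median of 0.81, whereas the 8 enzymes lie on both sides.

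Genes of 4 regulators were followed by name. Nfe2l2, which encodes NRF2, was between 189 and 278 CPM in normoxia and between 243 and 577 CPM in hyperoxia, and its log2 fold change was 0.62 (SE 0.18, adjusted p = 0.0236 by edgeR). Keap1, which encodes the adaptor that leads NRF2 to degradation, was at 0.48 (adjusted p = 0.0949), Rela, a subunit of NF-kB, at 0.27 (adjusted p = 0.599) and Foxo3, a factor known to act on Sod2 and Cat, at 0.19 (adjusted p = 0.67), each by edgeR. The core of the antioxidant response element to which NRF2 binds, TGACNNNGC on either strand, was searched in RefSeq promoters of GRCm38.p6 from 250 bases before to 50 bases after each gene start. It was found in 1 of the 7 enzymes with an entry, against 14.0% of 27025 genes. The match was in Sod1, on the strand opposite to the gene, at chr16:90220696-90220724, where the window with the core in capitals reads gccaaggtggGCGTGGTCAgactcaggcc. Sod3 had no entry.

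Markers of lung cell types also differed between the groups, and their part in the results above was not tested. The counts that follow stand beside 10.8% of all genes called lower and 11.8% called higher. Of 6 alveolar type 2 markers 5 were lower, and their summed level was between 6112 and 15450 CPM in normoxia and between 665 and 4026 CPM in hyperoxia. Of 4 club cell markers 2 were lower, with sums of 14493 to 53126 CPM and 185 to 10088 CPM. Of 7 endothelial markers 3 were lower, with sums of 2405 to 4756 CPM and 769 to 4476 CPM, and of 5 monocyte markers 3 were lower, with sums of 101 to 137 CPM and 55.2 to 71.1 CPM. All 3 B cell markers, both tested T cell markers, 2 of 4 ciliated cell markers, 2 of 3 cardiac muscle markers, 1 of 5 alveolar type 1 markers and 1 of 4 tested erythroid markers were lower as well. The erythroid sum, given because red cells are rich in catalase and Gpx1, ran from 194 over a median of 1728 to 3400 CPM in normoxia and from 169 over a median of 357 to 2863 CPM in hyperoxia, and all 4 tested markers were below 0, with a median log2 fold change of −1.31. Of 4 smooth muscle markers 2 were higher, with sums of 209 to 289 CPM and 278 to 554 CPM. Of 5 tested fibroblast markers 1 was higher and 1 lower, of 5 alveolar macrophage markers 1 was higher and 2 lower, and of 4 tested neutrophil markers 0 were called. No marker was at 0 in all libraries.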

How the data were processed

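Lung RNA of 7 Normoxia and 6 Hyperoxia libraries was measured by Quant-seq. The authors quantified reads with kallisto in BioJupies and deposited whole-number counts per gene symbol, without normalization, and log10 values, which were the log10 of CPM plus 1 to within 4.4e-16 when recomputed. Per the labels, mm10 and limma 3.54.2 were used. The annotation behind the symbols is not given in the sources used here. There were 0 unmapped columns.

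Counts were tested with edgeR 4.0.16 in R 4.3.3 (filterByExpr, TMM, glmQLFit, glmQLFTest, all 13 libraries, no covariate), called at an adjusted p under 0.05. CPM are TMM-scaled, and log2 CPM use a prior count of 2. Standard errors follow from the fold change and the F statistic. Floors cover counting error only, as no molecular identifiers were given. Pairs of genes were compared with exact permutation tests over all 1716 arrangements. Replicates of a group differed by more than sampling noise in 36 of 36 pairs. The scripts were tested on simulated counts.

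The alternatives were DESeq2 1.42.0, limma-voom (limma 3.58.1), limma on the deposited log10 values brought to log2, library size only, no filter on low counts, a minimum of 10 counts per library, library letters B to M and O to S as a term or apart, the replicate number as a block, and each library left out. Leaving out 2 libraries and a correction for length and GC content, with splines of 5 terms, were added with the values in view. The genes, lists and tests were chosen with earlier results of these data known. Named are all 8 enzymes, up to 4 called genes of each list by smallest p (otherwise the first gene), the 3 genes most correlated with each called enzyme, and Nfe2l2, Keap1, Rela and Foxo3. A few genes that this rule would name are not reported here. Symbols of renamed selenoproteins were matched through older RefSeq symbols. Coordinates are from the GRCm38 annotation, matched by symbol.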

Additional observations from a re-analysis of the deposited data

Results flagged for a closer look

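In groups of 6 or 7 libraries, 1 library was far from the others in 7 of the 30 groups examined, where chance flags about 1 in 20. Normoxia 7 was low for Sod2, at 119 CPM against 152 CPM in the next library. Normoxia 6 was low for Gpx3, at 42.9 CPM against 213 CPM, and for Gpx3 minus Gpx1, at −0.95 against 0.52 on the log2 scale. Hyperoxia 1 was high for Cat, at 320.1 CPM against 195 CPM, low for Gpx4, at 50.9 CPM against 154 CPM, and high for Cat minus Gpx1, at 3.93 against 1.03 on the log2 scale. Normoxia 5 had a low total count, 1607111 against 2696280 in the next normoxic library.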

How the results depend on the processing

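Sod2 was called in 24 of 24 fits and Cat in 23, and Sod1, Gpx1, Gpx3 and Gpx4 were called in none of theirs. Sod3 was called with library size only (−0.42), a minimum of 10 counts per library (−0.42) and limma on the deposited values (−0.44). It was also called without Hyperoxia 1 (−0.41) and without Hyperoxia 1 and Normoxia 6 (−0.47), so that 2 enzymes were called lower. These fits called 12.6, 13.6, 13.8, 13.3 and 13.9% of all genes as lower, beside 10.8%. Gpx2 was called without Hyperoxia 1 (1.39), without Hyperoxia 1 and Normoxia 6 (1.18) and with the length and GC correction (1.23). In these fits 2 enzymes were called higher, where 15.2, 14.5 and 15.1% of all genes were, beside 11.8%. With that correction Sod3 was at −0.20 (adjusted p = 0.398 by edgeR), Cat was at −0.60 and 0 were called lower, where 9.48% of all genes were. Limma on the deposited values moved the median of all genes by −0.13 and library size only by −0.07, and relative to that median Sod3 was at −0.28 and −0.32, against −0.32 in the reported fit. In the other fits that called it, Sod3 was further below that median. It was at −0.41 with a minimum of 10 counts per library, −0.41 without Hyperoxia 1 and −0.45 without Hyperoxia 1 and Normoxia 6. Within libraries O to S the differences were 0.0056 for Sod1, 0.91 for Sod2, 0.79 for Gpx1, 2.47 for Gpx2, 2.18 for Gpx3, 1.49 for Gpx4 and −1.68 for Cat minus Gpx1. Without Hyperoxia 1 and Normoxia 6, Sod3 minus Sod1 reversed to −0.091 and Gpx4 minus Gpx1 was at 0.59. The median of the oxidase list was −0.20 with a minimum of 10 counts per library, −0.22 with limma on the deposited values and 0.066 with the length and GC correction. The causes were not tested.

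Leaving out 1 library at a time gave −0.67 to −0.28 for Sod1, −0.41 to −0.26 for Sod3, −0.43 to −0.02 for Gpx1, 0.16 to 0.54 for Gpx4, 0.90 to 1.40 for Gpx2, −0.10 to 0.45 for Sod3 minus Sod1, 0.63 to 1.07 for Gpx4 minus Gpx1, −0.94 to −0.024 for Cat minus Gpx1, −0.21 to 0.12 for the oxidase list, and 1 to 2 enzymes called higher and 1 to 2 lower. Gpx2 was left out by a minimum of 10 counts per library.

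The replicate numbers are shared by name only, with correlations of deviations between −0.33 and 0.27 for the 6 numbers, and 0 of 6 hyperoxic libraries correlated best with their own number. With the replicate block over numbers 1 to 6, 703 genes were called higher and 588 lower, Sod2 was at 0.64 (adjusted p = 0.0257) and Cat at −0.86 (adjusted p = 0.0299) by edgeR, and Gpx4 minus Gpx1 was at 0.84 with an exact p of 0.0625. Among the 8 enzymes it changed no call. For Sod2 minus Sod1, Gpx2 minus Gpx1 and Gpx3 minus Gpx1 it gave 0.0313, the smallest p that 6 numbers allow, which was 0.0625 when adjusted over the 6 pairs. The named genes of the lists were not read from this fit.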
